A study of Mus musculus with 27 samples.

Results

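Zinc enters and leaves the hepatocyte through membrane carriers and is held inside the cell by small binding proteins. Carriers of the ZIP family (Slc39a genes) bring zinc into the cytosol from outside the cell or out of organelles, and carriers of the ZnT family (Slc30a genes) move metal the other way. Metallothioneins bind zinc and copper through cysteine residues, and the zinc-sensing transcription factor MTF1 switches their genes and that of the exporter ZnT1 on when zinc is plentiful. In the liver, metallothionein and the importer ZIP14 are also known targets of inflammatory and glucocorticoid signals.

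The genes followed here are 10 of the 51826 listed in the deposited tables: the importers Slc39a5, Slc39a14, Slc39a8, Slc39a4 and Slc39a1, the exporters Slc30a1 and Slc30a10, the metallothioneins Mt1 and Mt2, and the regulator Mtf1. The list is centred on Slc39a5, which was selected on its measured expected counts, which were lower in the weeks after weaning than in mice that had never been pregnant. The level of Slc39a5 is therefore given as a description without a test in every comparison. None of the 10 genes is tested here between the regressed and the nulliparous livers, the contrast that drew attention to the list.

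The study sequenced RNA from whole livers of wild-type BALB/c mice, an inbred laboratory strain, over 1 reproductive cycle. Mice that bred did so at 10 to 12 weeks of age, litters were evened out, and pups were taken away at 10 to 14 days of lactation. The 7 stages were nulliparous (NUL, 4 animals), lactation day 10 (LAC, 3), 2, 4, 6 and 8 days after weaning, named involution days in the labels (ID2, 3 animals; ID4, 4; ID6, 6; ID8, 3), and 4 weeks after weaning, called regressed (REG, 4). The labels list no agent and no altered allele for any group, they describe the animals as matched for age, and each library carries its own animal number, which names the library in the sentences that follow.

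Total expected counts ran from 41120650 to 75664540 per library, and 16 of the 27 libraries were sequenced in 2 runs. All 10 hepatocyte markers were detected in every group. The number in the sample title was under 200 in 7 animals, namely all 3 of ID8, 2 of 3 in ID2 and 2 of 4 in ID4, and the labels do not say what the number stands for. A score of circadian clock genes ran from 1.2 to 4.65 in ID2 and from -2.34 to 0.0958 in NUL. Summed pancreatic acinar markers reached 2300 CPM in ID2_31 and 176 CPM in ID4_15, and lay between 10.2 and 54.2 CPM in the other libraries. CPM stands for counts scaled to a common library total after TMM normalisation, which adjusts each total for differences in RNA composition.

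The 2 metallothioneins are the most abundant transcripts of the list and are close relatives, so their coding sequences are shown first, with the codons for cysteine, the metal-binding residue, in capitals. Both come from the GENCODE annotation and transcripts on GRCm38, read on the plus strand of chromosome 8. The coding exons of Mt1 span chr8:94179311-94180190 and those of Mt2 span chr8:94172848-94173424.
Mt1 coding sequence: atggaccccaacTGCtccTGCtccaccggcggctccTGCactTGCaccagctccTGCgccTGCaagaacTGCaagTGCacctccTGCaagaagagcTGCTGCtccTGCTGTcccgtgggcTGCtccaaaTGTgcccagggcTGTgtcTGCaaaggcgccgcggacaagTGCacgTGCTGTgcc
Mt2 coding sequence: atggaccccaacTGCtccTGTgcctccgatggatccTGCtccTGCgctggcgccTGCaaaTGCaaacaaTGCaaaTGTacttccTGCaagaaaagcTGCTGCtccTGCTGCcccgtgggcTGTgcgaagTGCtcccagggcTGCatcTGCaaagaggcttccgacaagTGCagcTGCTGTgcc
Each sequence has 183 bases before the stop codon, or 61 codons, and 20 of the 61 encode cysteine. All 20 cysteine codons stand at the same positions in both genes, and 145 of the 183 bases (79.2%) are identical. Counts were whole numbers, to within 0.001, in all 27 libraries for both genes, so no fractions of reads were divided between the 2 genes.

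MTF1 is known to bind a short motif, the metal response element. The 250 bases before the RefSeq start (GRCm38.p6) were searched for its core as TGCACNC and TGCGCNC on both strands. The windows of the 3 best known MTF1 targets of the list are shown, with every match in capitals, since Mt1 and Mt2 moved together and Slc30a1 did not pass the edgeR test.
Mt1, chr8:94178839-94179088, plus strand: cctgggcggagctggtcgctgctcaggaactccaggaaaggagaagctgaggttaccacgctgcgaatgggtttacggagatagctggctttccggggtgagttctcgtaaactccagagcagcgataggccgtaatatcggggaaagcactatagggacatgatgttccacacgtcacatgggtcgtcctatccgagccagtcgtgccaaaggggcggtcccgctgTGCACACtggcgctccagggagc
Mt2, chr8:94172368-94172617, plus strand: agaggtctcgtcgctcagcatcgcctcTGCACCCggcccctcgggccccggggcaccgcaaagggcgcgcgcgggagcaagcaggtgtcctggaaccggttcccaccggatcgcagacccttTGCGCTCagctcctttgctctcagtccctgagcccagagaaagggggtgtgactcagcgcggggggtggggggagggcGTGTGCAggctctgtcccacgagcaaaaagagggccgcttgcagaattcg
Slc30a1, chr1:191906531-191906780, plus strand: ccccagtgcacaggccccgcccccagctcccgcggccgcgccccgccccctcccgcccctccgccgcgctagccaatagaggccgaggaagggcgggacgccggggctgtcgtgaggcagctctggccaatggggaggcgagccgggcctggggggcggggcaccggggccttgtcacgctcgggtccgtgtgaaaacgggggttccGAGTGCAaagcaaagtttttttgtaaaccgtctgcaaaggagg
Within these windows Mt2 held 3 matches, Mt1 held 1 and Slc30a1 held 1. The Mt1 window ends at 94179088 and its coding sequence begins at 94179311. For Mt2 the window ends at 94172617 and the coding sequence begins at 94172848. The bases between were not searched, so the counts do not cover matches there. In all, 8 of the 10 genes were in the table. Slc30a10 held 3 matches, of which 2 overlap on opposite strands, Slc39a5 and Slc39a8 each held 1 in 1 of their 2 windows, and Slc39a1 and Mtf1 held none of these letters. Of all 32851 windows of the same length, 21.4% held at least 1 match and 1.26% held at least 3. A match describes the letters only and says nothing of binding.

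Levels differed widely between the genes. On the TPM scale, which takes gene length into account, the mean over the 27 livers was 762 for Mt1 and 316 for Mt2. Among importers it was 80.6 for Slc39a14, 43.3 for Slc39a1, 36.5 for Slc39a4, 15.2 for Slc39a8 and 3.5 for Slc39a5. The exporters Slc30a10 and Slc30a1 averaged 17.7 and 8.55 TPM, and Mtf1 averaged 6.71 TPM. Slc39a5 was thus the scarcest transcript of the list, with 105 to 689 counts per library.

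All 10 genes passed the filter on low counts and entered a single edgeR quasi-likelihood fit with 16428 genes. Slc39a4, Slc30a10, Mt1, Mt2 and Slc39a14 differed among the 7 stages, which makes 5 of the 9 genes other than Slc39a5, where 27% of all genes tested were called. The same 5 differed among the 6 stages after breeding, a test that leaves the NUL livers out of its contrasts and that called 28.3% of all genes. Single animals decided part of this count. It was 3 for the 7 stages, with Slc39a14 and Mt2 lost, in the fits without ID2_39, ID4_13, ID6_201 or ID6_232. Mt1, Slc30a10 and Slc39a4 were called in both joint tests whichever animal was left out. Slc39a8, Slc30a1, Slc39a1 and Mtf1 were not called in either joint test in edgeR, with adjusted p from 0.0791 to 0.424 over the 7 stages and from 0.096 to 0.336 over the 6. DESeq2 called 6 of the 9 in each joint test, the same 5 and Slc30a1 (DESeq2 adjusted p = 0.0244 and 0.0407). By limma on log2(TPM + 1), 4 were called over the 7 stages and 6 over the 6, and Slc39a14 was in neither count (limma adjusted p = 0.222 and 0.213). The 27% and 28.3% are shares of the edgeR fit, and no share of all genes is set beside the DESeq2 and limma counts.

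Slc39a5 encodes ZIP5, an importer best known from the basolateral membrane of gut cells and from the pancreas. The gene (ENSMUSG00000039878) lies on the minus strand at chr10:128395931-128401229. In the 4 NUL livers it stood at 9.34, 9.19, 9.16 and 8.03 CPM. At LAC the 3 livers had 5.79, 8.25 and 7.77 CPM, and 1 of them lay within the NUL range. At ID2 they had 5.21, 5.71 and 5.04 CPM, all below every NUL liver and below every LAC liver.

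The level was lower again at ID4, with 3.89, 2.69, 3.51 and 3.24 CPM. At ID6 the lowest, median and highest of 6 livers were 1.69, 2.32 and 3.21 CPM. The lower level was still there at ID8, with 3.91, 2.21 and 3.79 CPM, and 4 weeks after weaning, with 2.56, 1.62, 2.54 and 4.38 CPM. Every liver taken after weaning was thus below the lowest NUL liver, and the group means ran from 8.93 ± 0.607 (SD, n = 4) in NUL over 7.27 ± 1.3 (n = 3) in LAC and 5.32 ± 0.348 (n = 3) in ID2 to 2.36 ± 0.618 (n = 6) in ID6. In REG the mean was 2.77 ± 1.16 CPM (n = 4), or 0.311 of the NUL mean.

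Neighbouring stages separate less well than the ends of the series. The ranges of ID2 and LAC and of ID4 and ID2 did not overlap, while ID6 overlapped ID4, ID8 overlapped ID6 and REG overlapped ID8. Fitted log2 differences from NUL were -0.30 at LAC, -0.75 at ID2, -1.42 at ID4, -1.92 at ID6, -1.44 at ID8 and -1.68 at REG, all against the same 4 NUL libraries. The LAC difference was -0.16 without LAC_200, and the ID2 difference was -0.48 with the clock score in the model. Among all genes, 0.0852% were called between REG and NUL. In bulk tissue, fewer cells of a type and less RNA per cell cannot be told apart.

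Values of other tissues and of the neighbouring gene stood as follows. All 19 acinar markers were tested, and their sum was 19.9 to 34.3 CPM in NUL, 11 to 35.9 CPM in ID6 and 14.5 to 30.2 CPM in REG, so these groups overlapped. In LAC it was 10.2 to 19.2 CPM, below every NUL liver. In ID2_31, where the sum was 2300 CPM, Slc39a5 was 5.71 CPM against 5.04 and 5.21 CPM in the other two ID2 livers. Summed intestinal epithelial markers were 33 to 60.8 CPM in NUL and 25 to 44.7 CPM in REG, and 2 of the 10 were expressed highly enough to be tested. In LAC they were 24.8 to 27.8 CPM, again below every NUL liver. Kupffer cell sums were 492 to 619 CPM in NUL, 789 to 872 in ID4, 640 to 988 in ID6 and 509 to 640 in REG. Erythroid sums were 336 to 714 CPM in NUL, 53.8 to 265 in ID6 and 452 to 640 in REG. The part of these tissues and cells in the level of Slc39a5 was not tested. Ankrd52, on the opposite strand, overlaps the gene's span but shares 0 of its 2225 exonic bases, and stood at 28.9 ± 2.13 CPM in NUL (SD, n = 4) and 26.2 ± 4.62 CPM in REG (n = 4).

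**Figure D1:**
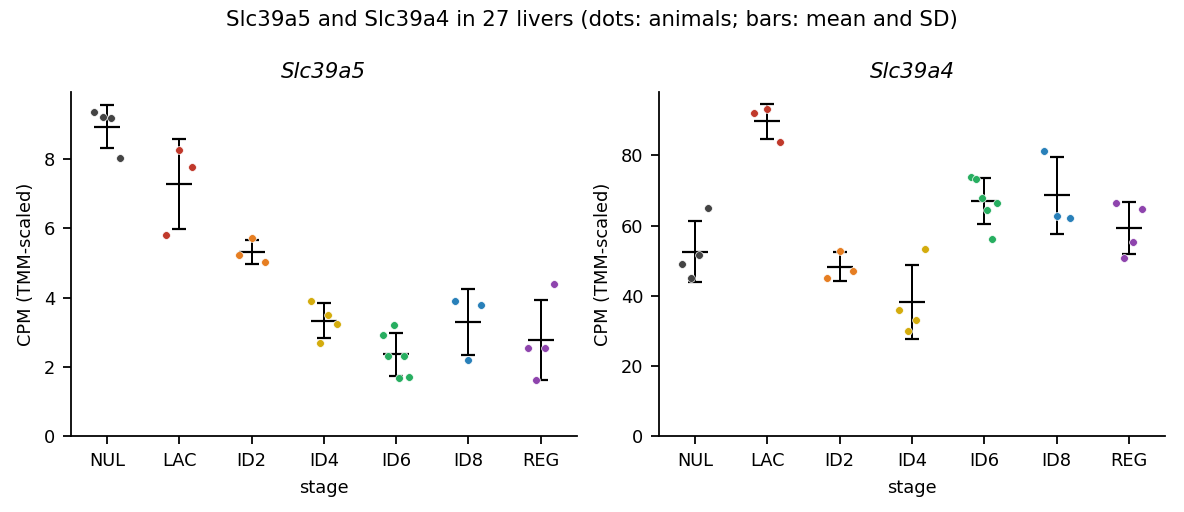
CPM of Slc39a5 (left) and Slc39a4 (right) in each of the 27 livers (dots) by stage, with the group mean and SD (bars). Slc39a5 lies between 8.03 and 9.34 CPM in NUL and at or below 5.71 CPM in every liver taken after weaning, while Slc39a4 is highest in LAC, at 83.9 to 93.1 CPM, and lowest in ID4.

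Slc39a4 encodes ZIP4, the importer known for zinc uptake in the gut, whose loss in people causes the zinc deficiency disease acrodermatitis enteropathica. The gene (ENSMUSG00000063354, chr15:76612383-76617384, minus strand) took a course unlike that of Slc39a5. It stood at 49.0, 45.1, 51.5 and 64.9 CPM in the NUL livers and at 92.2, 93.1 and 83.9 CPM in the LAC livers, all 3 above every NUL liver. The rise was 0.77 on the log2 scale (SE 0.15, adjusted p = 0.0013 in edgeR). It was the only edgeR call among the 9 genes between LAC and NUL, where 11.2% of all genes were called and 5.19% were called higher.

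By ID2 the level was back at 45.2, 52.9 and 47.0 CPM, below every LAC liver (log2 fold change -0.89, SE 0.16, edgeR adjusted p = 0.000621). ID4 livers had 36.1, 30.0, 33.3 and 53.4 CPM. At ID6 the 6 livers ran from 56.1 to 73.7 CPM with a median of 67.2, again above every liver of the stage before (log2 fold change 0.81, SE 0.13, edgeR adjusted p = 0.000532). ID8 livers had 81.3, 62.7 and 62.1 CPM, and REG livers 66.4, 50.8, 55.5 and 64.8 CPM. So Slc39a4 rose in lactation, fell within 2 days of weaning and rose once more between days 4 and 6.

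All 3 changes of Slc39a4 remained called in each fit that left out 1 animal and in each alternative setting that kept all 3 ID2 livers. Among animals numbered 200 and over alone, the step from ID4 to ID6 was 0.64 (SE 0.16, edgeR adjusted p = 0.0404). Between ID4 and NUL the difference was -0.46 (SE 0.14, edgeR adjusted p = 0.0593), which passed the threshold in the fit without ID4_215. Markers of several cell types moved alongside. The hepatocyte sum was 105000 to 134000 CPM in NUL, 193000 to 238000 CPM in LAC and 148000 to 162000 CPM in ID2. The hepatocyte transcript Alb alone stood at 89800 ± 10400 CPM in NUL (SD, n = 4) and 177000 ± 23000 CPM in LAC (n = 3). Such a sum can follow 1 abundant transcript and is no count of cells. Sums of Kupffer cell markers (492 to 619 CPM in NUL, 323 to 454 in LAC), stellate cell markers (368 to 504, 282 to 317), sinusoidal endothelial markers (404 to 476, 310 to 383) and bile duct markers (47.1 to 60.7, 31.5 to 41.2) were lower in LAC without overlap. In ID2 the stellate and endothelial sums were above every LAC liver, at 361 to 394 and 442 to 454 CPM, while the Kupffer and bile duct sums, at 447 to 558 and 40.5 to 53.1 CPM, overlapped it. Erythroid markers were 336 to 714 CPM in NUL, 769 to 1020 in LAC and 411 to 1190 in ID2. The part of these cells in the steps of Slc39a4 and of the other genes between these groups was not tested.

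Slc39a14 encodes ZIP14, the hepatocyte importer of zinc, manganese and iron that is known to be induced in inflammation. It lies at chr14:70303469-70351425 on the minus strand (ENSMUSG00000022094). Its mean was 202 ± 8.48 CPM in NUL (SD, n = 4), 191 ± 23.2 in LAC (n = 3), 245 ± 70.1 in ID2 (n = 3), 176 ± 15.1 in ID6 (n = 6) and 202 ± 8.53 in REG (n = 4). The ID2 livers had 221.2, 190 and 324 CPM, so animal 39 alone sets that mean apart. No single comparison called it in edgeR. The smallest edgeR adjusted p was 0.0551, for ID2 against LAC, a difference that DESeq2 called (DESeq2 adjusted p = 0.044), while the joint tests gave 0.0454 over 7 stages and 0.0288 over 6. Of the 27 fits that each omitted 1 animal, 19 no longer called it over 7 stages, and without ID2_39 the adjusted p was 0.211 over 7 stages and 0.189 over 6. Without ID6_218 it was 0.054 over the 6 stages. With the clock score in the model it was 0.513 and 0.691.

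The other importers varied less. Slc39a8, which encodes ZIP8, a carrier of zinc and manganese closely related to ZIP14, stayed between 31.6 and 44.6 CPM in all 27 livers, and the highest group mean was 1.2 times the lowest. Slc39a1, which encodes the widely expressed ZIP1, stayed between 66.4 and 87.7 CPM. Its 3 LAC livers had 68.8, 67.5 and 66.4 CPM and its 3 ID2 livers had 80.9, 77.5 and 87.0 CPM, without overlap. This step was called with a difference of 0.28 in log2 (SE 0.09, edgeR adjusted p = 0.042), and the call was lost whichever of the 6 animals was left out, with differences of 0.23 to 0.31 and adjusted p up to 0.162 without ID2_39. It was lost as well with no filter on low counts (edgeR adjusted p = 0.067) and with the title number (0.103) or the clock score (0.135) in the model. The differences were 0.28 to 0.30 in these settings. Among animals numbered 200 and over, which kept only ID2_224 of the ID2 livers, the difference was 0.25. Counts of Slc39a1 were not whole, by the same tolerance, in 23 libraries, so part of its reads was divided with other genes.

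Slc30a10 encodes ZnT10, which in spite of its family name is known as a manganese exporter of liver and gut. It lies at chr1:185454848-185468762 on the plus strand (ENSMUSG00000026614). NUL livers had 86.4, 91.5, 78.2 and 98 CPM and LAC livers 92.9, 107 and 80.0 CPM. At ID2 all 3 livers were lower than every NUL and LAC liver, at 59.1, 58.1 and 53.0 CPM. The level was 73.5 ± 11.4 CPM in ID4 (n = 4), 93.4 ± 12.4 in ID6 (n = 6), 78.9 ± 6.69 in ID8 (n = 3) and 82.7 ± 1.72 in REG (n = 4).

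The fall from LAC to ID2 was 0.72 on the log2 scale (log2 fold change -0.72, SE 0.13, edgeR adjusted p = 0.000346). It was called in every fit without 1 animal and under every alternative that kept all 3 ID2 livers. With the clock score in the model the difference was -0.46 (SE 0.14, edgeR adjusted p = 0.0423), and the scores of LAC (-1.21 to 0.828) and ID2 (1.2 to 4.65) did not overlap. Together with Slc39a4, which fell, and Slc39a1, which rose, Slc30a10 made 3 of the 9 genes called between ID2 and LAC, where 16.1% of all genes were called, 8.48% higher and 7.64% lower. Against NUL the ID2 livers were lower on the log2 scale (-0.64, SE 0.12, edgeR adjusted p = 0.00248), the single edgeR call among the 9 genes, where 3.24% of all genes were called and 0.919% were called lower. That call did not pass with the clock score in the model (-0.36, edgeR adjusted p = 0.339) or with the title number in it (-0.53, edgeR adjusted p = 0.0805). Among animals numbered 200 and over, which kept only ID2_224 of the ID2 livers, the difference was -0.59. The clock score was 1.2 to 4.65 in ID2 and -2.34 to 0.0958 in NUL, without overlap.

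From ID4 to ID6 Slc30a10 rose by 0.35 on the log2 scale (SE 0.10, edgeR adjusted p = 0.0274). The call was lost without ID4_15 (log2 fold change 0.24, edgeR adjusted p = 0.137), ID4_215 (0.37, edgeR adjusted p = 0.0518) or ID6_209 (0.27, edgeR adjusted p = 0.0845). With the clock score in the model the difference was 0.20 (edgeR adjusted p = 0.254), and with the title number 0.27 (edgeR adjusted p = 0.188). The clock score was -0.48 to 1.77 in ID4 and -2.19 to -0.592 in ID6, without overlap. With only the compared groups in the fit the difference was 0.35 (edgeR adjusted p = 0.0696), and among animals numbered 200 and over 0.25 (edgeR adjusted p = 0.292). Counts of Slc30a10 were fractional in all 27 libraries, so part of its reads could also come from other genes.

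Slc30a1 encodes ZnT1, the main zinc exporter of the plasma membrane, and overlaps an antisense gene. Its counts were fractional in 25 libraries, so its level too could include reads of other genes. It lay between 24.6 and 46.0 CPM over the 27 livers. The group means were 31.2 ± 6.42 in NUL (n = 4), 41.2 ± 6.79 in LAC (n = 3), 42.7 ± 2.56 in ID2 (n = 3) and 32.9 ± 8.8 in REG (n = 4). All 3 ID2 livers (42.5, 40.2 and 45.3 CPM) were above the 4 NUL livers (24.6, 38.2, 34.9 and 27 CPM), yet the difference of 0.45 on the log2 scale did not pass in edgeR (SE 0.16, edgeR adjusted p = 0.125). Between LAC and NUL it was 0.40 (SE 0.16, edgeR adjusted p = 0.111), and it passed in the fit without NUL_221.

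**Figure D2:**
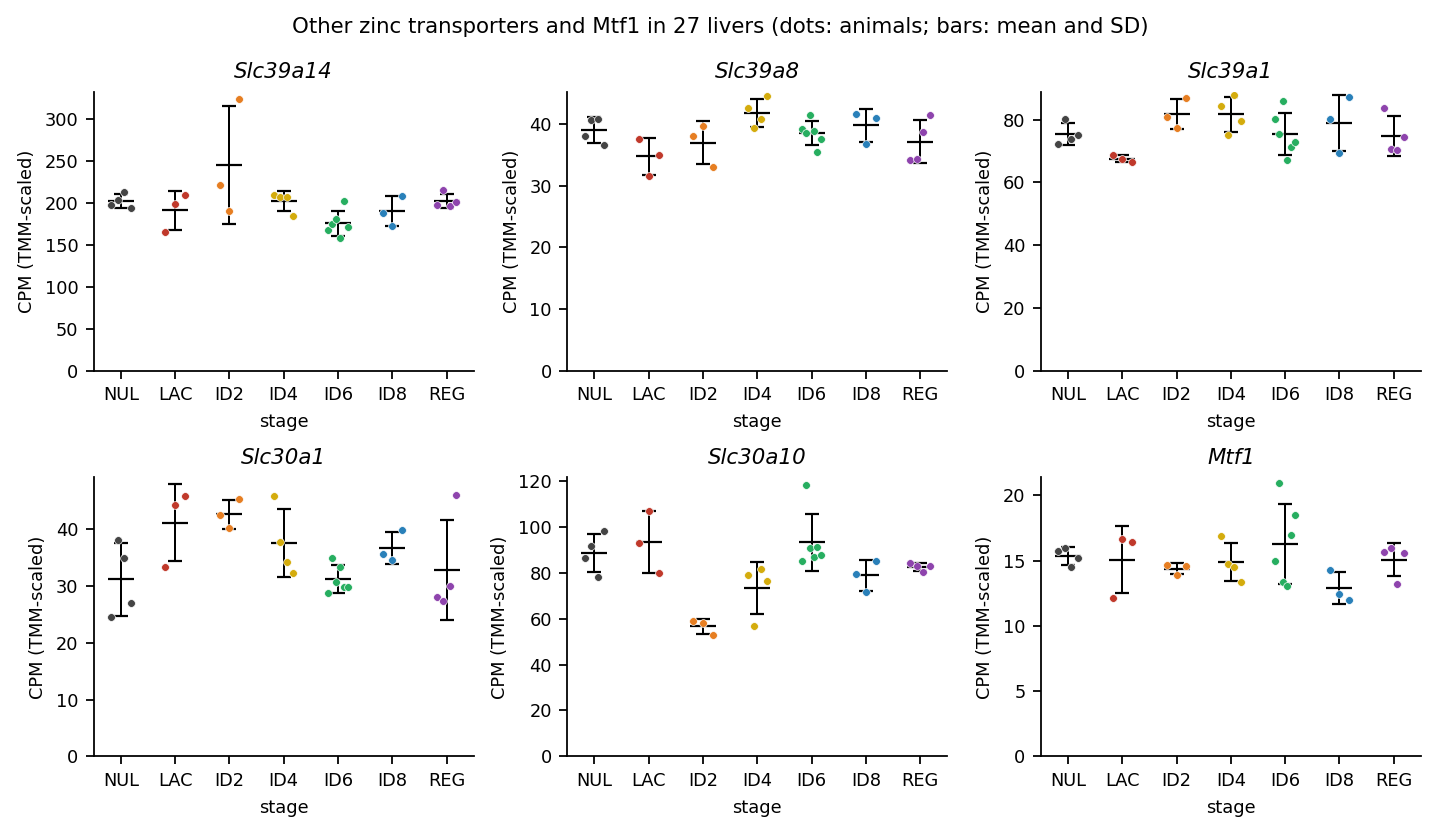
CPM of the importers Slc39a14, Slc39a8 and Slc39a1, the exporters Slc30a1 and Slc30a10 and the regulator Mtf1 in each of the 27 livers (dots) by stage, with group mean and SD (bars). Slc30a10 dips to 53.0 to 59.1 CPM at ID2, and Slc39a8 stays between 31.6 and 44.6 CPM throughout.

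Mt1 and Mt2 had the widest spread of the list, with the highest group mean 4.15 times the lowest for Mt1 and 5.39 times for Mt2. Mt1 (ENSMUSG00000031765, chr8:94179082-94180327) stood at 290, 361, 174 and 95 CPM in NUL and at 193, 556 and 266 CPM in LAC. At ID2 it was 236, 153 and 354 CPM and at ID4 398, 253, 216.2 and 240 CPM. These 4 groups overlapped. At ID6 the 6 livers ran from 52.1 to 154 CPM, with a median of 79.3, all below the lowest ID4 liver.

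Mt2 (ENSMUSG00000031762, chr8:94172664-94173568), whose span overlaps an antisense gene, spread further. Its counts were whole in all 27 libraries, so no read was divided with that gene, although the use of strand is not given. Mt2 stood at 63.7, 172, 15.8 and 8.65 CPM in NUL, a 19.9-fold range in CPM between animals of 1 group, and at 30.8, 223 and 57.1 CPM in LAC. ID2 livers had 118, 67 and 195 CPM and ID4 livers 204, 110, 84.3 and 124 CPM. At ID6 the range was 12.6 to 34.9 CPM with a median of 26.6, all below ID4.

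Both genes fell between ID4 and ID6, with log2 fold changes of -1.53 for Mt1 (SE 0.40, edgeR adjusted p = 0.0227) and -2.43 for Mt2 (SE 0.65, edgeR adjusted p = 0.0252). With the rises of Slc39a4 and Slc30a10 this made 4 of the 9 genes called at that step, where 8.53% of all genes were called, 3.89% higher and 4.64% lower. In the other comparisons tested, edgeR called neither metallothionein, while DESeq2 called Mt1 between ID6 and NUL (DESeq2 adjusted p = 0.048, edgeR adjusted p = 0.15). After day 6 Mt1 stood at 81.6 ± 19.3 CPM in ID8 (n = 3) and 116 ± 44.5 in REG (n = 4), and Mt2 at 33.9 ± 16.5 and 27.5 ± 13.4 CPM. These ranges overlapped those of NUL.

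Leaving out some single animals ended the call, with fitted differences not far from those of all animals. Without ID4_13, the highest of its group, it was -1.30 for Mt1 (edgeR adjusted p = 0.0918) and -2.13 for Mt2 (edgeR adjusted p = 0.0873). Without ID6_209 it was -1.5 for Mt1 (edgeR adjusted p = 0.0504), and without ID6_232 it was -2.30 for Mt2 (edgeR adjusted p = 0.054). Among animals numbered 200 and over, 2 of which were ID4, the fold changes were -1.24 (edgeR adjusted p = 0.253) and -2.09 (edgeR adjusted p = 0.223). Adding the title number to the model gave -1.33 for Mt1 (edgeR adjusted p = 0.117) and -2.19 for Mt2 (edgeR adjusted p = 0.106).

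Transcripts of other systems moved at the same step. Of 26 genes of inducible acute phase proteins and their signals, 14 fell and 1 rose between ID4 and ID6, after 14 had been higher and 1 lower in ID4 than in NUL. Over all genes 8.53% were called between ID4 and ID6 and 4.25% between ID4 and NUL. Among them Lcn2, an iron-carrier-binding protein, was 85.8 ± 57 CPM in ID4 (n = 4) and 10.6 ± 5.95 in ID6 (n = 6). Summed erythroid markers were 407 to 1030 CPM in ID4, 53.8 to 265 in ID6, 20.9 to 35.8 in ID8 and 452 to 640 in REG. The part of either in the metallothionein levels was not tested.

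Mt2 made up 9.51% to 39.8% of the summed Mt1 and Mt2 TPM of a liver. Its share was 18.8 ± 12.3% in NUL (n = 4), 22.3 ± 8.18% in LAC (n = 3), 36.5 ± 2.59% in ID2 (n = 3), 34.8 ± 2.99% in ID4 (n = 4), 23.3 ± 4.14% in ID6 (n = 6), 31.4 ± 8.38% in ID8 (n = 3) and 21.5 ± 3.99% in REG (n = 4). All 7 livers of ID2 and ID4 were at 31.1% or more, and all 10 of ID6 and REG at 28.8% or less. The 3 ID8 livers, at 31.4%, 23% and 39.8%, fell on both sides of that gap, as did the NUL and LAC livers, in which NUL_221 had 35.6% and LAC_213 had 31.4%. The sum itself averaged 1690 ± 570 TPM in ID4 (n = 4) and 536 TPM in ID6, where it ran from 310 to 897 TPM.

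**Figure D3:**
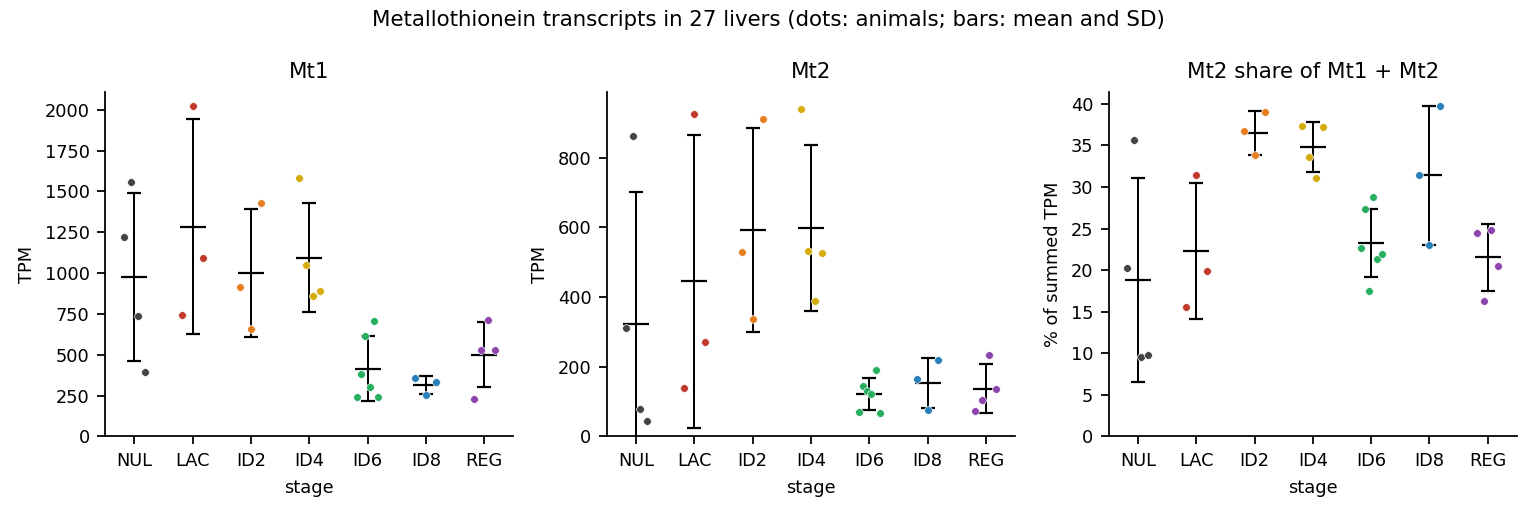
TPM of Mt1 (left) and Mt2 (middle) and the share of Mt2 in their sum (right) in each of the 27 livers (dots) by stage, with group mean and SD (bars). All 6 ID6 livers lie below every ID4 liver for both transcripts, and the share of Mt2 is 31.1% or more in every ID2 and ID4 liver and from 23% to 39.8% in ID8.

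Mtf1, which encodes the regulator itself, stayed between 12.0 and 20.9 CPM. Its counts were fractional in all 27 libraries and it overlaps a protein-coding gene on the opposite strand, so part of these reads could come from other genes. Group means ran from 12.9 ± 1.23 in ID8 (n = 3) to 16.3 ± 3.08 in ID6 (n = 6), and neither edgeR nor DESeq2 called it in any comparison tested. The smallest edgeR adjusted p was 0.116, for ID8 against ID6. At the step where both metallothioneins fell, its log2 fold change was 0.13 (SE 0.11, edgeR adjusted p = 0.536).

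In 6 of the 10 comparisons tested, edgeR called 0 of the 9 genes other than Slc39a5. Between ID4 and NUL (4.25% of all genes called), 2 of the 9 had an unadjusted p under 0.05 and DESeq2 called 1, Slc39a4. Between ID6 and NUL (1.08%), 3 had such a p and DESeq2 called 1, Mt1. Between ID8 and NUL (0.499%), 2 had such a p and DESeq2 called 0. Between ID4 and ID2 (1.49%), 4 had such a p and DESeq2 called 0, while edgeR called 1 without ID4_15 (Slc30a10) or without ID4_215 (Slc39a4). Between ID8 and ID6 (4.12%), 2 had such a p and DESeq2 called 0. Between REG and ID8 (0.0487%), 0 had such a p and DESeq2 called 0.

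The remaining ZIP, ZnT and metallothionein genes number 19, of which 14 were expressed highly enough to be tested. Not tested were Slc39a12, Slc30a2, Slc30a8 and the brain and epithelial metallothioneins Mt3 and Mt4, which reached at most 22 counts in any liver. Of the 14, 3 were called between LAC and NUL, beside 11.2% of all genes: Slc39a3, a plasma membrane importer, fell (log2 fold change -0.33, SE 0.08, edgeR adjusted p = 0.00428), while Slc39a11 and Slc30a9, which encodes a mitochondrial zinc exporter, rose by 0.49 and 0.22. With only the compared groups in the fit the calls of Slc39a3 (edgeR adjusted p = 0.0579) and Slc30a9 (0.113) were lost at differences of -0.33 and 0.22, as in the fit of all groups. With limma on either TPM scale, or with an offset for effective length, those of Slc39a11 (adjusted p from 0.105 to 0.188) and Slc30a9 (0.184 to 0.41) were lost. The differences there were 0.31 to 0.41 for Slc39a11 and 0.24 to 0.35 for Slc30a9. The call of Slc30a9 was also lost with no filter on low counts (0.21, edgeR adjusted p = 0.127) and among animals numbered 200 and over (0.22, edgeR adjusted p = 0.0541). The call of Slc39a11 was lost without LAC_240, and that of Slc30a9 without LAC_213, NUL_221 or NUL_226. Slc39a3 had group means of 14.4 ± 0.599 CPM in NUL (n = 4), 11.4 ± 0.431 in LAC (n = 3) and 16.4 ± 0.654 in ID2 (n = 3).

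Between ID2 and LAC, 4 of the 14 were called, beside 16.1% of all genes. Slc39a3 rose by 0.52 (SE 0.08, edgeR adjusted p = 7.7e-05), and it stayed called in every fit without 1 animal. Slc30a9 fell by 0.28 (log2 fold change -0.28), Slc30a5, a carrier that loads the secretory pathway with zinc, by 0.43 (-0.43), and the scarce Slc30a3 by 1.81 (-1.81). The count was 1 without LAC_213 and 2 without ID2_31 or ID2_39. The call of Slc30a9 was lost without LAC_213, that of Slc30a5 without ID2_31, ID2_39, LAC_200 or LAC_213, and that of Slc30a3 without any animal of either group but LAC_200. With the title number in the model Slc30a3 differed by -0.92 (edgeR adjusted p = 0.448) and with the clock score by -1.49 (0.224). Of the 12 alternatives other than leaving out an animal, 7 lost the call of Slc30a3 and 9 that of Slc30a5 (adjusted p up to 0.504), and the call of Slc30a9 was lost on log2 TPM, with the effective length as an offset and among animals numbered 200 and over.

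Between ID6 and ID4, 2 of the 14 were called, Slc30a5 (0.39) and the plasma membrane importer Slc39a10 (0.80), both higher, beside 8.53% of all genes called and 3.89% called higher. The count was 0 without ID4_215 and 1 without ID4_13, ID4_211 or ID6_209. The call of Slc30a5 was lost with the title number (0.33, edgeR adjusted p = 0.158) or the clock score (0.41, edgeR adjusted p = 0.0547) in the model. Both calls were lost among animals numbered 200 and over, at 0.37 for Slc30a5 (edgeR adjusted p = 0.224) and 1.03 for Slc39a10 (0.0507). Between ID8 and ID6 Slc30a5 fell (-0.48), a call lost without ID6_209, ID8_101b, ID8_14 or ID8_98b. It was lost as well with the title number (-0.36, edgeR adjusted p = 0.356), the clock score (-0.51, 0.0643) or the number of runs (-0.44, 0.0516) in the model. All 3 ID8 animals and none of the ID6 animals had a title number under 200. Slc39a2 was lower in ID6 than in NUL (-1.47, SE 0.32, edgeR adjusted p = 0.0158), at 0.372 ± 0.112 against 1.04 ± 0.354 CPM, a call lost without NUL_226 or NUL_227. Under alternatives other than leaving out an animal, the difference of Slc39a2 ran from -1.51 to -0.39. Kupffer and erythroid sums also separated ID6 from NUL, and their part was not tested. Its span overlaps Mettl17 on the same strand.

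In the other comparisons tested, edgeR called 0 of the 14. An unadjusted p under 0.05 was found for 2 between ID2 and NUL, 2 between ID4 and NUL, 1 between ID8 and NUL, 1 between ID4 and ID2 and 3 between REG and ID8, and DESeq2 called 0 in each of these. Across the 7 stages 6 of the 14 were called, beside 27% of all genes.

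**Figure D4:**
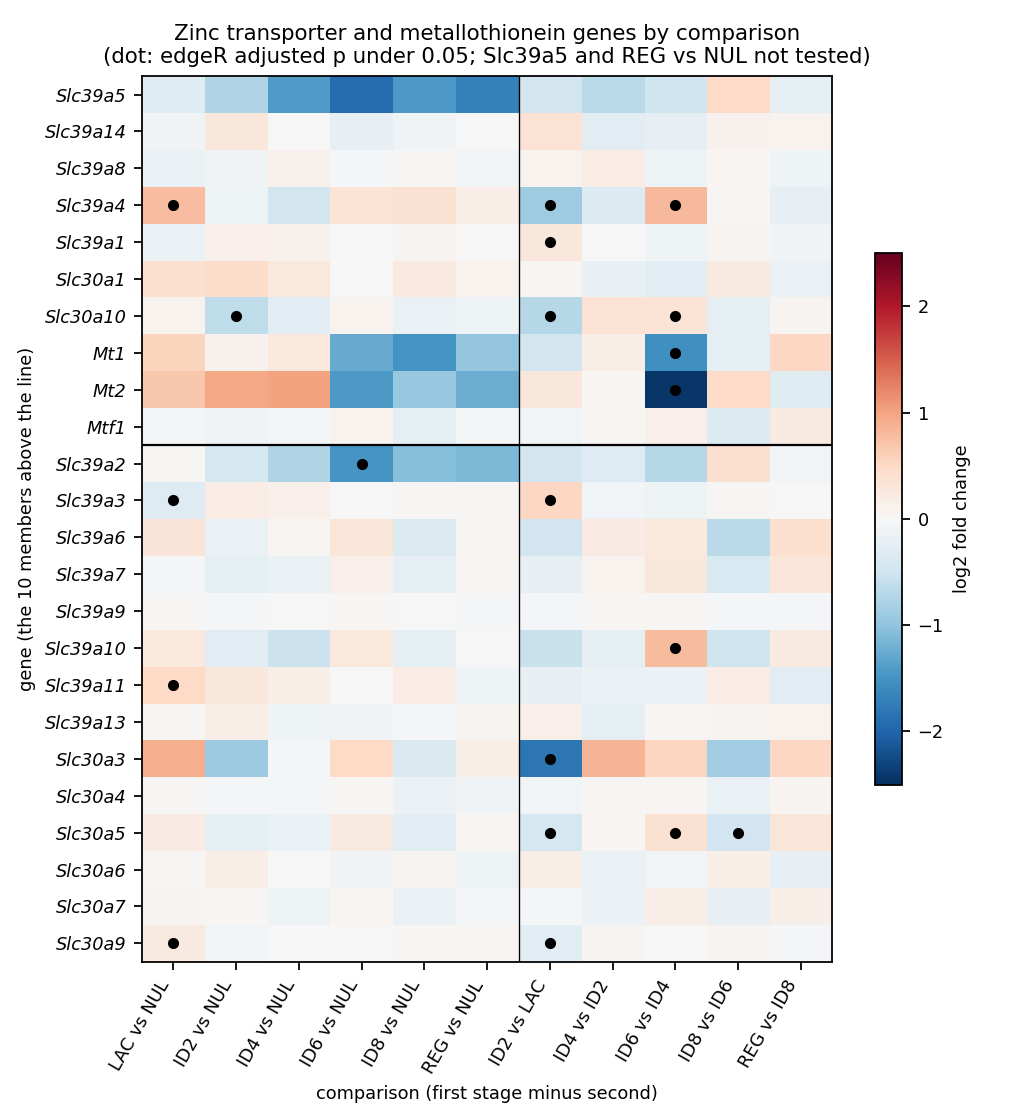
Fitted log2 fold changes of the 10 genes (above the line) and the 14 other tested zinc transporter genes (below it) in 11 comparisons, with dots where the edgeR adjusted p was under 0.05. Slc39a5 and the comparison of REG with NUL carry no dots because they were not tested. The largest difference among the called cells is the fall of Mt2 from ID4 to ID6 (-2.43).

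Genes of neighbouring systems were counted in the same fit, in which 11.2% of all genes were called between LAC and NUL and 8.53% between ID6 and ID4. Between LAC and NUL, 4 of 16 tested genes of metal and redox response were called. Car2 (1.03), a zinc-dependent carbonic anhydrase, Alb (0.98), the main zinc carrier of plasma, and Txnrd1 (0.43) were higher, while Car3, another carbonic anhydrase, was lower. In the copper list 2 of 15 were called, a share near that of all genes. Both were lower, namely the metalloreductase Steap4 (-0.69) and the cytochrome oxidase assembly factor Sco2 (-0.58). In the manganese list 2 of 10 were called, lower Slc40a1 (-0.77), the iron exporter ferroportin, and higher Sod2 (0.23). Acute phase genes gave 6 of 26, 5 of them lower, including the iron hormone Hamp (-1.67). Of 15 glucocorticoid-responsive genes 3 were called lower, Sds, Nr3c1 and Pck1. At the step from ID4 to ID6 the metal and redox list gave 5 of 16, among them Mt1, Mt2 and Slc39a10, which are described above. The copper list gave 2 of 15, the manganese list 2 of 10, of which 1 was Slc30a10, and the glucocorticoid list 3 of 15, of which 2 were again Mt1 and Mt2 and the other was Klf9.

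Genes whose level followed that of Slc39a5, Slc39a4 or Mt1 most closely over the 27 libraries were ranked by Pearson's r of log2 CPM among 10526 genes, with the 10 genes of the list left out of the ranking. These values share the libraries and the stages, and are a description. For Slc39a5 the first 5 were Ctps2 (0.78), Atp6v1a (0.70), Cyp4a14 (0.70), Lnpk (0.69) and Fam102a (0.69). Ctps2, a CTP synthase, was 10.2 ± 1.1 CPM in NUL and 7.72 ± 0.917 CPM in REG (SD, n = 4 and 4). Cyp4a14, a fatty acid hydroxylase, was 151 ± 28.5 CPM in NUL and 52.9 ± 45.5 CPM in REG.

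For Slc39a4 the first 5 were Tkt (0.85), a pentose phosphate enzyme, Cyp27a1 (0.84), a sterol hydroxylase of bile acid synthesis, Hcn3 (0.81), H2afz (0.81) and Cyb5b (0.79). For Mt1 they were Fam216a (0.76), Acsf2 (0.74), Grb10 (0.72), Pgrmc1 (0.71) and Alas2 (0.70), the erythroid enzyme of heme synthesis. Within the list, Mt2 followed Mt1 with an r of 0.86, above all of these. Slc39a5 had an r of 0.61 with Mt1 and of 0.05 with Slc39a4.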

How the data were processed

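RNA of 27 whole livers was sequenced, 1 library per animal, and groups were taken from the sample titles. The expected count per gene in the deposited tables is an RSEM estimate made by the authors, per the file headers, and carries no scaling for depth. The deposited TPM values, per the file headers, are the authors' estimates scaled by gene length. The effective length, which served in 1 alternative, is also the authors', per the file headers. The submitters' processing notes name STAR 2.6.1a, RSEM 1.3.1 and the builds mm10 and GRCm38, without role or order, and the use of strand is not given in the sources used here. Reads without molecular identifiers are not independent molecules, so counting error is understated.

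Of 51826 identifiers, 51633 were found in GENCODE release M21 (GRCm38), which gave symbols and positions, and the 193 others held 0.0147% of counts. Promoter windows came from RefSeq (GRCm38.p6). No pair of libraries within a group was close to sampling noise (smallest chi-square per gene 45.7).

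Expected counts were rounded and analysed with edgeR 4.0.16 in R 4.3.3: filterByExpr by stage, TMM scaling, and 1 robust quasi-likelihood fit of all 27 libraries with 7 groups. It gave 11 comparisons and 2 joint tests, with Benjamini-Hochberg adjustment over all 16428 genes tested, a threshold of 0.05 and two-sided tests. CPM refers to the TMM-scaled library. The script was tested on simulated data. Alternatives were DESeq2 1.42.0, limma 3.58.1 on log2(TPM + 1) and log2(TPM + 0.1), other scalings, filters and covariates, and each animal left out; the restriction to animals numbered 200 and over and the number of runs as a covariate were chosen after seeing the data.

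The 10 genes and all lists were chosen with earlier results of these data known. All 10 are named, as are other zinc transporter genes called in at least 1 comparison, up to 3 genes per neighbouring list with the smallest p between lactation and nulliparous livers, and the 5 genes most like Slc39a5, Slc39a4 and Mt1 by Pearson's r of log2 CPM (prior count 2, mean log2 CPM of at least 1). Lcn2, Ankrd52, Mettl17, Car3 and Klf9 were named after their values were seen.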

Additional observations from a re-analysis of the deposited data

Results flagged for a closer look

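In 40 combinations of gene and group with 4 to 6 animals, 5 held 1 animal whose distance from the others was large for the spread of its group by Dixon's criterion, where chance alone gives about 1 in 20. In NUL, NUL_227 had 8.03 CPM of Slc39a5, below the 9.16 to 9.34 CPM of the other 3. In ID4, ID4_215 had 185 CPM of Slc39a14, below the 207 to 210 CPM of the other 3. In REG, REG_239 had 46.0 CPM of Slc30a1, above 27.4 to 30.1 CPM in the other 3, and REG_234 had 13.2 CPM of Mtf1, below 15.6 to 15.9 CPM. In ID6, ID6_209 had 118 CPM of Slc30a10, above 85.1 to 91.3 CPM in the other 5.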

How the results depend on the processing

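No paired analysis was possible because no replicate number occurs in more than 1 group. Of the results recomputed, 0 reversed. The shares of all genes given above belong to the main edgeR fit, and none is set beside the counts that follow. Without 1 animal at a time, the number of the 9 genes called ran from 1 to 2 between LAC and NUL, 1 to 1 for ID2 and NUL, 0 to 1 for ID4 and NUL, 2 to 3 for ID2 and LAC, 0 to 1 for ID4 and ID2, and 2 to 4 for ID6 and ID4, and from 3 to 6 over the 7 stages and 4 to 6 over the 6. For the 14 other zinc transporter genes it ran from 2 to 3 between LAC and NUL, 0 to 1 for ID6 and NUL, 1 to 3 for ID2 and LAC, 0 to 2 for ID6 and ID4 and 0 to 2 for ID8 and ID6, and from 4 to 6 and 3 to 7 over the stages. The ID4 to ID2 count was 1 without ID4_15 or ID4_215, the ID6 to ID4 count 2 without ID4_13 or ID6_209, the ID8 to ID6 count of other genes 2 without ID6_218, and their count over the 6 stages 3 without LAC_240. The fitted difference of Slc39a5 between REG and NUL ran from -2.0 (without REG_239) to -1.5.

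On log2 TPM, with either pseudocount, 2 of the 9 were called between LAC and NUL and 1 between ID4 and NUL; of the other 14, 1 was called between LAC and NUL, 1 between ID4 and ID2 and 3 over the 6 stages, and 2 (pseudocount 1) or 1 (pseudocount 0.1) between ID2 and LAC. The Slc39a5 difference was -1.33 on log2(TPM + 1), a scale that understates changes of low genes. With DESeq2, 1 of the 9 was called between ID4 and NUL and 1 between ID6 and NUL, and 2 of the 14 between ID8 and ID6. With the title number in the model, 0 of the 9 were called between ID2 and NUL, 1 between ID6 and ID4 and 3 over the 7 stages, and of the 14, 2 between ID2 and LAC, 1 between ID6 and ID4 and 0 between ID8 and ID6. With the clock score in it, 0 of the 9 were called between ID2 and NUL and 3 over the 7 stages, and of the 14, 1 between ID4 and NUL, 1 between ID6 and ID4 and 2 between ID8 and ID6. Among animals numbered 200 and over, 1 of the 9 and 0 of the 14 were called between ID6 and ID4. That setting kept only ID2_224 of the ID2 livers, so its counts for ID2 are left out. With the number of runs in the model, 3 of the 9 were called over the 7 stages, and of the 14, 2 between ID2 and LAC and 0 between ID8 and ID6. With the effective length as an offset, 1 of the 14 was called between LAC and NUL, 2 between ID2 and LAC, 1 between ID4 and ID2 and 3 over the 7 stages. With no filter, 2 of the 14 were called between ID2 and LAC, and with only the compared groups in the fit 1 between LAC and NUL. At an adjusted p under 0.01, 1 of the 9 was called between ID6 and ID4 and 3 over both sets of stages, and of the 14, 1 between LAC and NUL, 0 between ID6 and NUL, 2 between ID2 and LAC, 0 between ID6 and ID4, 0 between ID8 and ID6 and 3 over the 6 stages. The cause of these differences was not tested, other than the stricter threshold and, for fewer animals, the smaller groups. Of the 10 genes depth limits Slc39a5 most, at 105 to 689 counts per library, and among the others named Slc39a2 had 11 to 93 and Slc30a3 had 7 to 75.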
